A study of Cavia porcellus with 12 samples.

Results

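The enzymes that turn cholesterol into bile acids were followed in the liver of guinea pigs with NASH. The 10 genes were *CYP7A1* and *CYP8B1* of the classical branch, *CYP27A1* and *CYP7B1* of the alternative branch, *HSD3B7* and *AKR1D1*, which act on the sterol ring, *AMACR* and *ACOX2*, which act on the side chain, and *SLC27A5* and *BAAT*, which conjugate the product. They were chosen by symbol, and all 10 were among the 11896 human orthologue symbols of the deposited table. Total RNA of the left lateral liver lobe, enriched for mRNA, was sequenced in 6 female Dunkin Hartley guinea pigs fed a high-fat diet with sucrose and cholesterol and in 6 fed chow, all for 25 weeks. The high-fat-fed animals are labelled NASH and had been selected for bridging fibrosis, and the chow-fed animals are labelled healthy, so that diet and disease cannot be told apart. The livers were not perfused, each animal gave 1 library, and animals are named below by their study number.

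Bile acids are made from cholesterol in hepatocytes by enzymes of the endoplasmic reticulum, mitochondria and peroxisomes. The classical branch starts with CYP7A1, its rate-limiting step, and CYP8B1 then decides how much cholic acid is formed relative to chenodeoxycholic acid. The alternative branch starts with the mitochondrial side-chain hydroxylase CYP27A1, followed by the oxysterol hydroxylase CYP7B1. Both branches share the enzymes of the ring, the peroxisomal shortening of the side chain and the coupling to glycine or taurine. Bile acids restrain their own synthesis through the nuclear receptor FXR (*NR1H4*) and the corepressor SHP (*NR0B2*).

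Of the 10 enzymes, 8 were lower and 1, *CYP7B1*, was higher in NASH animals than in controls, while the first enzyme of the classical branch, *CYP7A1*, did not pass the test. Calls were made with edgeR's quasi-likelihood test at a Benjamini-Hochberg adjusted p-value under 0.05 over all 11896 symbols. Of all symbols, 26.0% were called lower and 27.9% higher, and 53.9% were called in either direction. The 9 called enzymes were also the 9 whose groups did not overlap in the scaled levels described below. This was the case for 15.3% of all symbols on the lower side and 18.4% on the higher side. A fall of at least 1 on the log2 scale that also passed the test was seen in 6 of the 10 enzymes and in 5.35% of all symbols. Over the enzymes the median log2 fold change was −1.23, beside 0.0018 over all symbols. The falls were steepest in the ring enzymes and shallowest in *CYP27A1*.

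**Figure D1:**
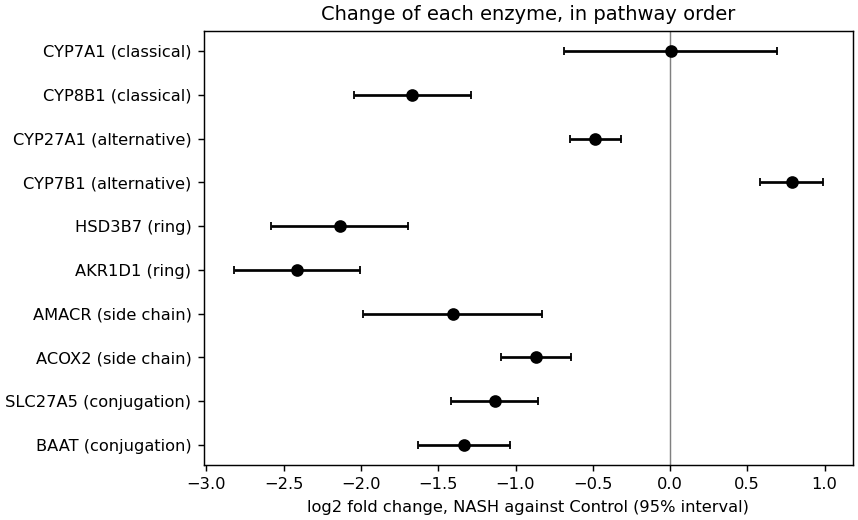
Log2 fold change of NASH against control animals for the 10 enzymes in pathway order, with 95% intervals of edgeR's fit (6 animals per group). The values run from −2.42 for *AKR1D1* to 0.79 for *CYP7B1*, and the interval of *CYP7A1* is the widest of the 10 and spans 0.

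Levels are given in CPM, an animal's counts per 1000000 counts of its total, scaled with TMM factors for library composition. The totals ranged from 16980274 to 28636467 counts in controls and from 23704607 to 33091460 in NASH animals, with TMM factors of 0.804 to 0.875 and 1.12 to 1.24. The factors separate the groups: with the library size alone, the median log2 fold change of all symbols moved to 0.48, and 911 symbols (7.66%) were called lower and 7603 (63.9%) higher in place of 3093 and 3318. Counts under that scaling are to be read against these shares. Markers of hepatocytes were themselves lower in NASH, 7 of 9 measured, with a median log2 fold change of −0.83, and their summed level fell from 105392 to 127766 CPM in controls to 44165 to 69642 CPM in NASH. With the library size alone 4 of the 9 were lower, with a median of −0.35. In bulk tissue, fewer hepatocytes and less RNA per hepatocyte cannot be told apart. All 6 cholangiocyte markers found were higher (summed 73.8 to 117 CPM in controls and 320 to 563 CPM in NASH), as were 8 of 10 stellate cell markers (731 to 873 and 1595 to 3245 CPM) and all 4 erythroid markers found (57.4 to 172 and 427 to 4531 CPM). Of 5 T cell markers, 1 was lower and 1 higher (52.9 to 109 and 30.4 to 58.0 CPM), or 1 and 2 with the library size alone. No marker found was at 0 in every animal of a group, and the part of these shifts in the results below was not tested.

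*CYP7A1*, cholesterol 7-alpha-hydroxylase, was read at 14.1, 54.9 and 64.1 CPM in controls (lowest, median and highest animal) and at 31.7, 44.0 and 60.4 CPM in NASH animals. All 6 NASH animals lay inside the range of the controls, in which 2 animals, 10 with 23.5 CPM and 56 with 14.1 CPM, stood below the 53.0 CPM of the next. The means were 44.9 ± 20.8 and 45.2 ± 9.51 CPM (SD, n = 6 each), and the log2 fold change was 0.0057 (SE 0.32, adjusted p = 0.989 from edgeR). Its 95% interval, from −0.68 to 0.69, leaves room for a change of either sign. With 1 animal left out at a time the value ran from −0.18, without control 56, to 0.13, without control 32. With the library size alone it was 0.49 (adjusted p = 0.184 from edgeR), which is 0.017 above the median of all symbols under that scaling. The standard deviation of log2 CPM was 0.90 in controls and 0.31 in NASH animals.

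*CYP8B1*, sterol 12-alpha-hydroxylase and the other enzyme of the classical branch, was lower in every NASH animal than in any control. Controls had 78.1, 99.9 and 125.7 CPM, and NASH animals had 22.3, 29.5 and 42.5 CPM (lowest, median and highest). The means were 98.4 ± 18.1 and 30.99 ± 7.98 CPM (SD, n = 6 each), which is a fall by 1.67 on the log2 scale (SE 0.17, adjusted p = 6.28e-06 from edgeR), or to 31.5% of the control level. The classical branch held an enzyme without a called change, *CYP7A1*, and a lower one, *CYP8B1*.

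*CYP27A1*, the mitochondrial enzyme that opens the alternative branch, had 151.6, 173.8 and 198.0 CPM in controls and 115.7, 124.9 and 137.0 CPM in NASH animals. In TMM-scaled CPM the groups did not overlap, although the gap was narrow. With the library size alone they overlapped, as control 5 had 2122 of 17414347 counts and NASH animal 9 had 4694 of 29539332. The means were 176 ± 17.8 and 126 ± 7.88 CPM (SD, n = 6 each), and the log2 fold change was −0.48 (SE 0.076, adjusted p = 0.000168 from edgeR). This call depends on the scaling: with the library size alone the log2 fold change was −0.011 (adjusted p = 0.91 from edgeR), which is 0.49 below the median of all symbols under that scaling. *CYP27A1* had the smallest fall of the 8 lower enzymes.

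*CYP7B1*, the oxysterol 7-alpha-hydroxylase that follows CYP27A1, was the enzyme that rose. Its 6 controls had 5.87, 6.08 and 7.65 CPM and its 6 NASH animals 10.05, 11.02 and 12.4 CPM (lowest, median and highest), without overlap. The means were 6.52 ± 0.79 and 11.2 ± 0.93 CPM (SD, n = 6 each), so that the level rose 1.73-fold (0.79 on the log2 scale with an SE of 0.094 and an edgeR adjusted p = 1.69e-05). The counts behind these levels ran from 107 to 147 in controls and from 303 to 394 in NASH animals, the lowest counts of the 10 enzymes. With the library size alone the log2 fold change was 1.26, and 0.79 above the median of all symbols. CYP27A1 is also expressed in macrophages. Of the 8 macrophage markers found, 1 (*CD68*) was higher and 2 were lower, with summed levels of 451 to 755 CPM in controls and 649 to 843 CPM in NASH. With the library size alone 5 of the 8 were higher and 1 was lower, where 63.9% and 7.66% of all symbols were, and their part in the values of *CYP27A1* and *CYP7B1* was not tested.

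**Figure D2:**
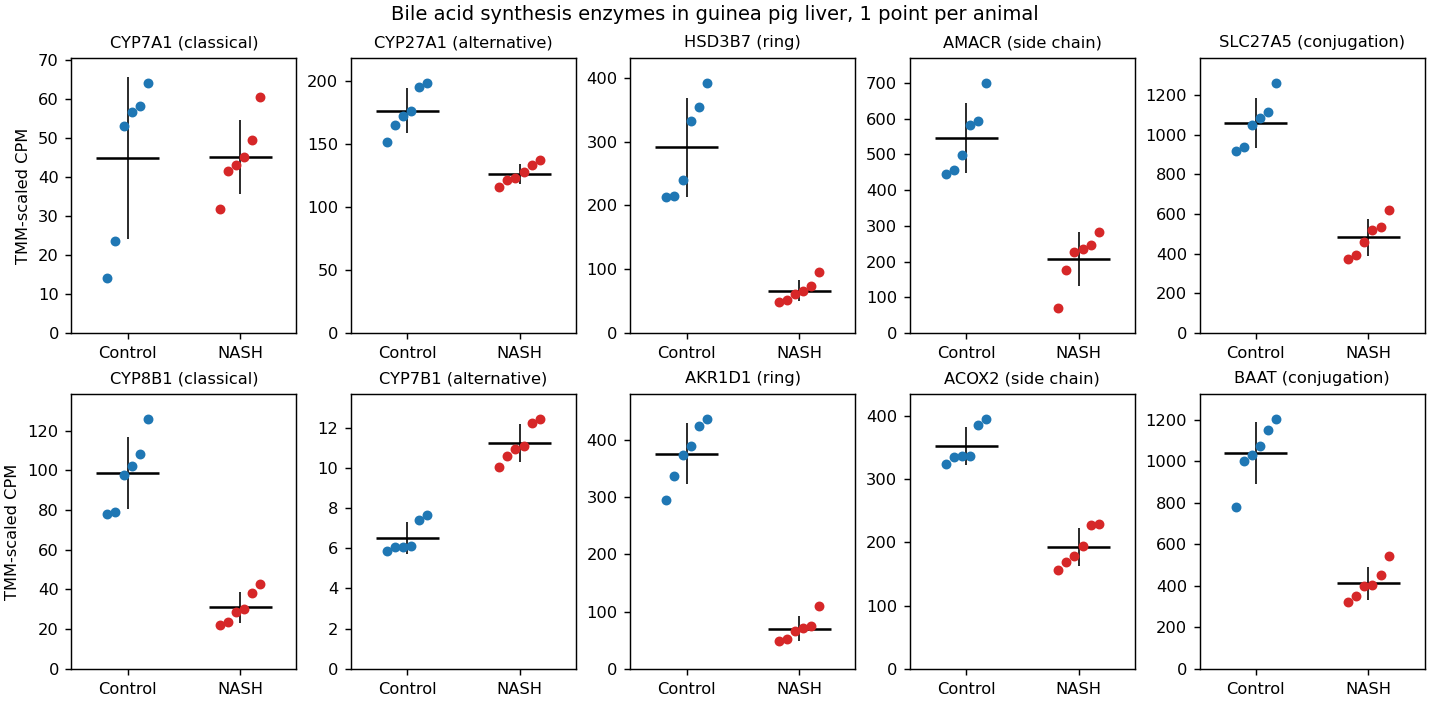
TMM-scaled CPM of the 10 enzymes, with 1 point per animal, a horizontal bar at the mean and a vertical bar of 1 SD for 6 control and 6 NASH animals. The groups overlap for *CYP7A1* alone, and *CYP7B1* is the enzyme whose NASH animals lie above the controls.

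Whether the branch enzymes changed by different amounts was tested directly on their ratio within each animal, which does not depend on library scaling. The 6 pairs of the 4 branch enzymes were compared with two-sided exact permutation tests over animals, for which the smallest possible p-value is 0.00216, and adjusted over the 6 pairs. The ratios are differences in log2 CPM and are not corrected for gene length, so only their change between groups is read. *CYP8B1* over *CYP7A1* ranged from 0.30 to 2.47 in the 6 controls and from −1.14 to 0.27 in the 6 NASH animals, and the means differed by −1.85 (SE 0.43, exact permutation p = 0.00216, adjusted p = 0.00325). The groups stayed apart by little. The enzymes of the classical branch changed by different amounts.

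The pair of the alternative branch differed as well. *CYP7B1* over *CYP27A1* rose by 1.26 (SE 0.13, exact permutation p = 0.00216, adjusted p = 0.00325), from −4.74 ± 0.30 to −3.48 ± 0.14 (SD, n = 6 each). Across the branches, *CYP7B1* over *CYP8B1* showed the widest shift of the 6, 2.46 (SE 0.22, exact permutation p = 0.00216, adjusted p = 0.00325), which is a 5.52-fold change of the ratio. Its controls lay between −4.36 and −3.39 and its NASH animals between −1.95 and −1.004. *CYP27A1* over *CYP8B1* rose by 1.21 (SE 0.17, exact permutation p = 0.00216, adjusted p = 0.00325). The ratios that compare the alternative branch with *CYP7A1* did not pass the test. *CYP27A1* over *CYP7A1* moved by −0.65 (SE 0.38, exact permutation p = 0.132, adjusted p = 0.158) and *CYP7B1* over *CYP7A1* by 0.61 (SE 0.41, exact permutation p = 0.175, adjusted p = 0.175). Both depended on control 56. Without it *CYP27A1* over *CYP7A1* moved by −0.37 (exact permutation test, adjusted p = 0.242), and *CYP7B1* over *CYP7A1* passed the test at 0.94 (exact permutation test, adjusted p = 0.0156).

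**Figure D3:**
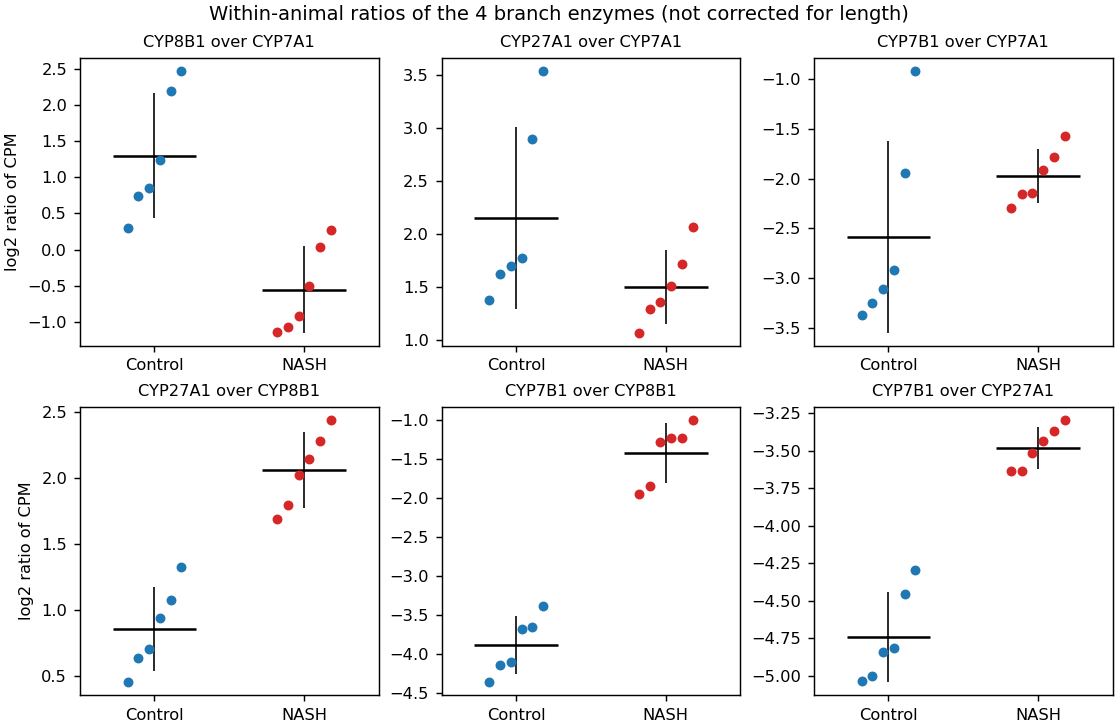
Log2 ratio of CPM within each animal for the 6 pairs of *CYP7A1*, *CYP8B1*, *CYP27A1* and *CYP7B1*, with 1 point per animal, a horizontal bar at the mean and a vertical bar of 1 SD. In 4 pairs the 6 NASH animals do not overlap the 6 controls, and in both pairs of the alternative branch with *CYP7A1* they do.

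The ring enzymes fell most. *HSD3B7*, the hydroxysteroid dehydrogenase of the endoplasmic reticulum that oxidises the 7-alpha-hydroxylated sterols of both branches, had 214, 286 and 392 CPM in controls and 49.1, 63.6 and 95.5 CPM in NASH animals (lowest, median and highest). Its log2 fold change was −2.14 (SE 0.20, adjusted p = 3.21e-06 from edgeR), or 22.7% of the control level. *AKR1D1*, the cytosolic 5-beta-reductase that bends the ring system, had 294, 381 and 436 CPM in controls and 48.6, 69.0 and 109 CPM in NASH animals. It fell by 2.42 on the log2 scale (SE 0.19, adjusted p = 6.5e-07 from edgeR), to 18.7% of controls. Counted from the lowest log2 fold change, *AKR1D1* ranked 54 and *HSD3B7* 74 among the 11896 symbols.

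The peroxisomal side-chain enzymes fell less. *AMACR*, the racemase that gives the side chain the configuration needed for oxidation, had 446, 541 and 700 CPM in controls and 69.4, 231 and 283 CPM in NASH animals. NASH animal 20, at 69.4 CPM, lay below the 176.0 CPM of the next. The log2 fold change was −1.41 (SE 0.27, adjusted p = 0.000728 from edgeR), and without animal 20 it was −1.23 (adjusted p = 3.31e-05 from edgeR). The count row of *AMACR* carries 3 symbols, *AMACR*, *C1QTNF3* and their readthrough, so that its value cannot be assigned to the racemase alone. The other 9 enzymes each had a row of their own. *ACOX2*, the branched-chain acyl-CoA oxidase that starts the shortening of the side chain, had 324, 337 and 395 CPM in controls and 157, 186 and 230 CPM in NASH animals. Its log2 fold change was −0.87 (SE 0.10, adjusted p = 1.81e-05 from edgeR), or 54.7% of controls.

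The conjugating enzymes were lower by similar amounts. *SLC27A5*, the bile acid-CoA ligase of the liver, had 916, 1067 and 1259 CPM in controls and 373, 488 and 617 CPM in NASH animals. Its log2 fold change was −1.13 (SE 0.13, adjusted p = 1.25e-05 from edgeR). *BAAT*, which joins the activated bile acid to glycine or taurine, had 779, 1051 and 1202 CPM in controls and 321, 403 and 546 CPM in NASH animals. Its log2 fold change was −1.33 (SE 0.14, adjusted p = 5.45e-06 from edgeR), so that *SLC27A5* remained at 45.5% and *BAAT* at 39.7% of the control level. In both, every NASH animal lay below every control.

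Read animal by animal, the pattern recurred in all 6 NASH livers, with a median over the 10 enzymes between −1.53 and −0.84 in log2 CPM relative to the control mean, and *CYP7B1* between 0.63 and 0.93. NASH animal 65 had the highest level of its group in 4 enzymes (*AKR1D1*, *AMACR*, *SLC27A5* and *BAAT*) and the lowest in *CYP7A1*. NASH animal 20 had the lowest *AMACR*, *ACOX2* and *SLC27A5* of its group and the highest *CYP7A1* and *HSD3B7*. NASH animal 41 had the lowest *CYP27A1*, *CYP7B1*, *HSD3B7* and *AKR1D1*. The lowest levels of the group were thus spread over several animals.

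**Figure D4:**
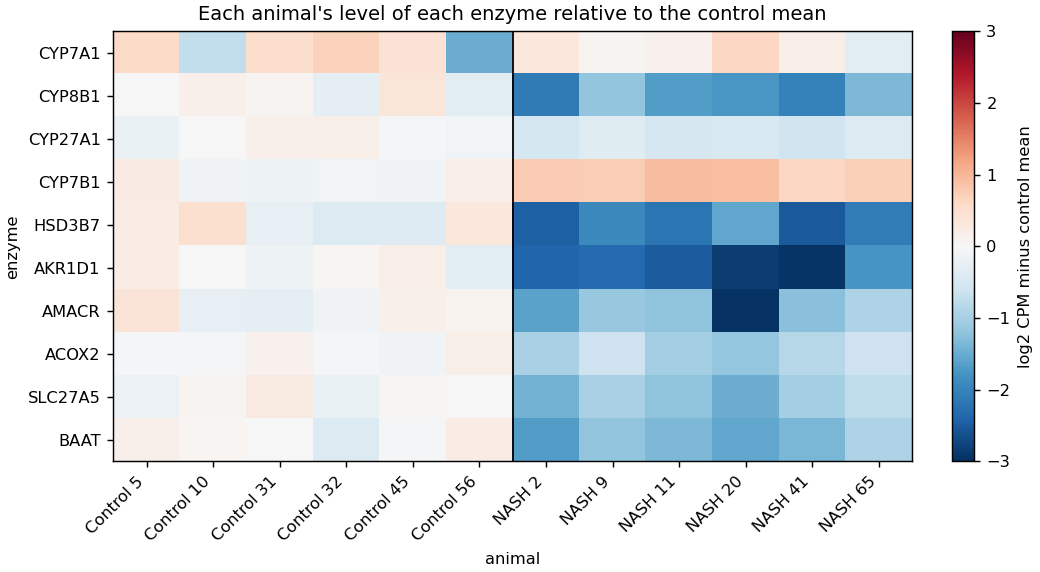
Level of each enzyme in each animal as log2 CPM minus the mean of the 6 controls (blue lower, red higher), with controls to the left of the line and NASH animals to the right. The darkest blue cells are *AMACR* in NASH animal 20 (−2.96) and *AKR1D1* in NASH animal 41 (−2.94), *CYP7B1* is red in all 6, and *CYP7A1* is bluest in controls 56 and 10.

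Within groups, none of the relations between the enzymes of a branch passed the test. *CYP7A1* and *CYP8B1* had a Pearson's r of 0.286 in controls (exact permutation p = 0.617, adjusted p = 0.804, n = 6) and a Spearman's rho of −0.086 (exact permutation p = 0.919, adjusted p = 0.919). In NASH animals r was −0.57 (exact permutation p = 0.231, adjusted p = 0.461, n = 6) and rho −0.77 (exact permutation p = 0.103, adjusted p = 0.411). *CYP27A1* and *CYP7B1* had an r of −0.83 in controls (exact permutation p = 0.0639, adjusted p = 0.256, n = 6), with a rho of −0.60 (exact permutation p = 0.242, adjusted p = 0.483). In NASH animals r was 0.118 (exact permutation p = 0.804, adjusted p = 0.804, n = 6) and rho 0.086 (exact permutation p = 0.919, adjusted p = 0.919). Without the 2 animals farthest from the median of the first-named gene, r over the remaining 4 was −0.995, −0.88, −0.75 and −0.435 in the same order, so that the classical pair in controls and the alternative pair in NASH animals changed sign. The adjustment covers the 4 relations computed.

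The profiles most like those of the branch enzymes were sought among all symbols by the root mean square difference of rlog values, each gene centred on its mean over the 12 animals. Because the 12 animals span both groups, the nearest genes tend to share the direction of change by construction. For *CYP8B1* they included *MAT1A* (0.115 log2 units) and *CTH* (0.126), genes of amino acid metabolism that were both lower in NASH, against a median of 0.571 over all symbols. For *CYP27A1* they were *ABCF3* (0.050), *RNF187* (0.050) and *TMEM128* (0.052), against 0.224. For *CYP7B1* they were *KCTD10* (0.055), *STX6* (0.057) and *RAB15* (0.059), against 0.251, and none of these 3 remained among the nearest with log2 CPM in place of rlog values, which draw low genes towards their mean. The nearest to *CYP7A1*, *YTHDF3* (0.195), *GDA* (0.206) and *TARDBP* (0.213), were farther away, against a median of 0.396. Among the 10 enzymes themselves, *ACOX2* and *SLC27A5* (0.124) and *SLC27A5* and *BAAT* (0.128) were closest.

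Of a list of 16 further enzymes and peroxisomal import receptors, 10 were in the table, with 6 lower, 1 higher and 3 not called, a median log2 fold change of −0.53, beside the 26.0% lower and 27.9% higher of all symbols. *HSD17B4*, the bifunctional enzyme that follows ACOX2 in the peroxisome, fell from 1154 to 428 CPM (log2 fold change −1.43, adjusted p = 2.25e-07 from edgeR). *SLC27A2*, the very-long-chain ligase that activates the side chain before its oxidation, fell from 266 to 105 CPM (−1.35, adjusted p = 2.43e-06 from edgeR). *SULT2A1*, which sulphates bile acids, had a log2 fold change of −0.86 (adjusted p = 0.00366 from edgeR), a call lost with the library size alone (adjusted p = 0.0881 from edgeR), although its distance to the median of all symbols was −0.86 and −0.87 under these scalings. *ACOT8*, a peroxisomal thioesterase, was at −0.032 (adjusted p = 0.797 from edgeR), and *CYP3A4* at −0.26 (adjusted p = 0.0768 from edgeR). The count row of *CYP3A4* carries 5 symbols of the CYP3A family, so that its value cannot be assigned to *CYP3A4* alone. *CH25H*, which makes the 25-hydroxycholesterol that CYP7B1 can use, was the gene called higher, with 2 to 6 counts in controls and 18 to 87 in NASH animals (log2 fold change 2.34, adjusted p = 0.000491 from edgeR). At the level of its controls, *CH25H* could pass the limit on total counts (below) only through higher counts in NASH animals. Its direction was thus fixed by that limit, so that its test cannot decide the direction.

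Of 23 regulators and cofactors, 19 were in the table, and 8 were lower, 4 higher and 7 not called, with a median log2 fold change of −0.48, where 26.0% of all symbols were lower and 27.9% higher. The 4 higher ones include *STAR*, whose direction was fixed by the limit on total counts (below). With the library size alone 6 were lower and 4 higher, against 7.66% and 63.9% of all symbols. FXR (*NR1H4*) had 140, 172 and 188 CPM in controls and 178, 235 and 323 CPM in NASH animals, with overlap (log2 fold change 0.52, SE 0.16, adjusted p = 0.014 from edgeR). In NASH animals 3 values (280 to 323 CPM, animals 41, 9 and 65) stood above all controls and the other 3 (178 to 190 CPM) lay within their range or just above it. SHP (*NR0B2*), which FXR induces, went the other way, from 21.03, 34.2 and 45.3 CPM to 19.1, 21.5 and 30.0 CPM with overlap, a shift of −0.56 on the log2 scale (SE 0.17, adjusted p = 0.0124 from edgeR) that was −0.091 with the library size alone (adjusted p = 0.639 from edgeR). Relative to the median of all symbols *NR0B2* stood at −0.56 and −0.57 under these scalings. The oxysterol receptor LXR alpha (*NR1H3*) fell from 158 to 66.8 CPM (−1.24, adjusted p = 3.94e-06 from edgeR), while LXR beta (*NR1H2*) rose from 17.5 to 22.9 CPM (0.39, adjusted p = 0.00189 from edgeR). *NR1I3*, the xenobiotic receptor CAR, fell most of the list, by 2.11 on the log2 scale (adjusted p = 6.96e-07 from edgeR), and the P450 reductase *POR*, which supplies electrons to CYP7A1, CYP8B1 and CYP7B1, was lower as well (−0.80, adjusted p = 0.000331 from edgeR).

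*FGFR4* and *KLB*, the hepatic receptor pair for the intestinal hormone FGF19, had log2 fold changes of −0.31 (adjusted p = 0.0786 from edgeR) and −0.64 (adjusted p = 0.114 from edgeR). The membrane bile acid receptor *GPBAR1* rose, from 1.002 to 2.68 CPM (1.399, adjusted p = 0.000163 from edgeR). *STAR*, which carries cholesterol to the inner mitochondrial membrane where CYP27A1 sits, had no count in any control and 0.69 to 8.17 CPM in NASH animals. Against a limit of 3 counts per library it was higher in NASH, at least 14.9-fold (edgeR adjusted p = 0.00104). Of 13 transporters of bile acids, sterols and phospholipids listed, 12 were in the table on 11 count rows, as *SLCO1B1* and *SLCO1B3* share a row and are a single measurement. By edgeR's test 6 rows were lower, among them those of the sterol exporters *ABCG5* and *ABCG8*, and 2 were higher, beside 26.0% and 27.9% of all symbols. With the library size alone 3 were lower and 3 higher, beside 7.66% and 63.9%. The calls of *ABCG5* and *ABCG8* were lost under that scaling (adjusted p = 0.103 and 0.0991 from edgeR). Their distances to the median of all symbols were −0.81 and −0.71 there, and −0.81 and −0.70 with TMM factors. The uptake carrier *SLC10A1* fell by 1.86 and the export pump *ABCB11* by 1.25 on the log2 scale, while *ABCC3* and *ABCC4*, exporters towards the blood, rose by 2.15 and 3.51.

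**Figure D5:**
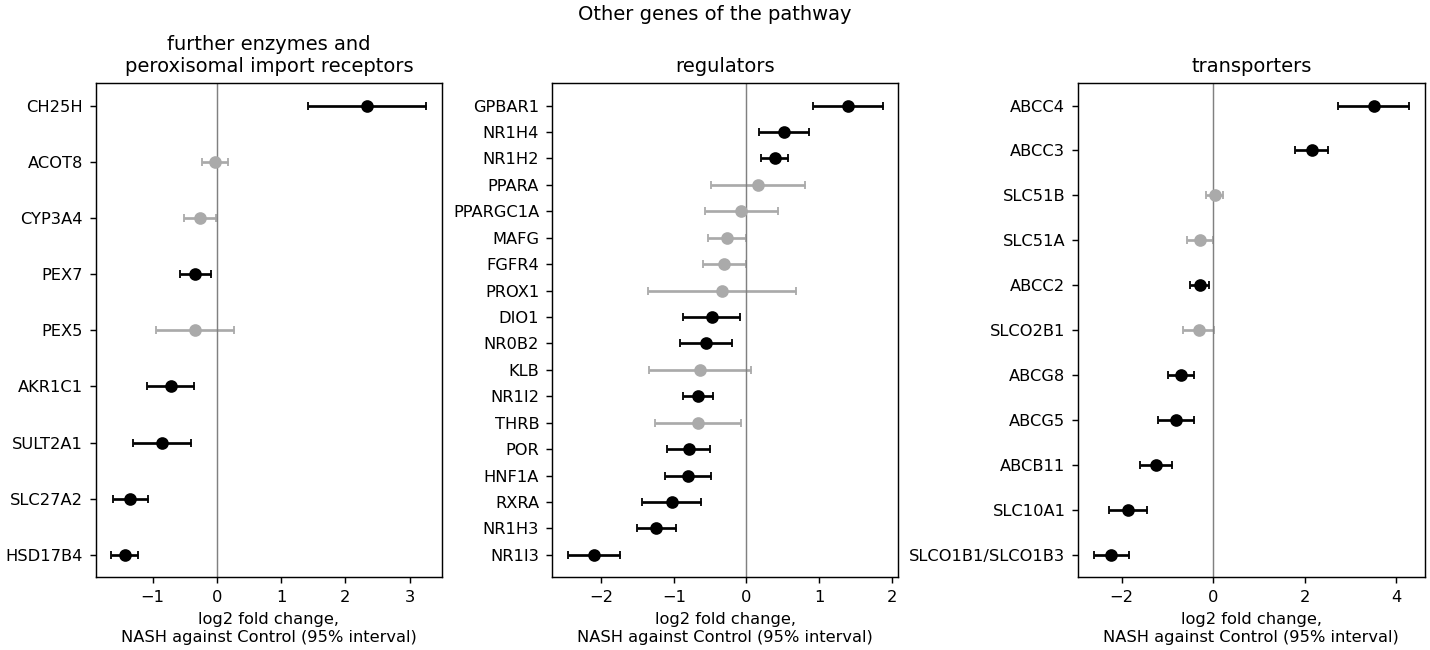
Log2 fold change of NASH against control animals, with 95% intervals, for further enzymes with peroxisomal import receptors, regulators, and transporters (black past the edgeR threshold, grey not). *STAR*, with no count in controls, is left out, and most black points lie below 0 in each panel, with *CH25H*, *GPBAR1*, *NR1H4*, *NR1H2*, *ABCC3* and *ABCC4* above it.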

How the data were processed

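The authors trimmed reads with Trimmomatic 0.38.0, mapped them to Cavpor3.0 with HISAT2 2.1.0, ignored multimapped reads and quantified loci with StringTie 1.3.6. They deposited unnormalised counts for each locus or Ensembl gene. The authors also deposited log2 values, the DESeq2 rlog transform of those counts, for human orthologue symbols with a total of at least 200 counts. The count table has 39061 rows and no symbols. Repeating the rlog transformation tied all 11896 symbols to 11031 rows, with differences of at most 8.35e-07 on the log2 scale.

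Counts were tested in R 4.3.3 with edgeR 4.0.16 (TMM, totals of the whole table, robust glmQLFit, glmQLFTest), with Benjamini-Hochberg adjustment over all symbols. The standard error is the absolute log2 fold change over the root of F. Log2 CPM values used a prior count of 2. Counting error was exceeded at least 44.5-fold in variance between all 30 pairs of animals of a group. Limits of 3 counts cover counting error only. The edgeR procedure was also run on simulated counts, and the outcome of that run is not reported here.

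The enzymes and the lists were chosen with earlier results of these data known. Named were the enzymes, genes of the further enzyme and regulator lists, extremes of the other lists and the 3 nearest profiles. *SLC10A1*, *ABCB11*, *ABCC3*, *ABCG5* and *ABCG8*, and the values of single animals in the closing section, were picked after they were seen. Alternatives were RLE and upper-quartile factors, library size alone, DESeq2 1.42.0, limma 3.58.1 (voom, and on rlog values), all rows that held at least 1 count, rows kept by filterByExpr, 0.01 as the limit for the adjusted p-value, glmTreat with a log2 limit of 1, and leaving out each animal. The labels name no batch. A few genes are left unreported. Gene lengths and sequences were not used here, and the fibrosis areas were not analysed here.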

Additional observations from a re-analysis of the deposited data

How the results depend on the processing

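The count of 8 lower and 1 higher enzymes was kept under every alternative run except library size alone (7 and 1) and edgeR's glmTreat, which asks for a change beyond 1 on the log2 scale (4 and 0). The latter also left 1 lower and 1 higher regulator, and 2 lower genes and 1 higher gene of the further enzyme list. It called 247 lower and 853 higher among all symbols, a stricter question by construction. With library size alone, 3 genes of the latter list were lower and 2 higher, beside 7.66% and 63.9% of all symbols. With 1 animal left out at a time, the log2 fold change of *CYP7A1*, never past the threshold, lay between −0.18 and 0.13, the change of *CYP7B1* over *CYP7A1* between 0.45 and 0.94, and that of *CYP27A1* over *CYP7A1* between −0.80 and −0.37. Other than *CYP7B1* over *CYP7A1* without control 56, the ratios kept their direction and side of the threshold under each alternative run, as did the within-group correlations with rlog values, while 2 of the 4 correlations changed sign without the 2 farthest animals. With rlog values, which draw low genes towards their mean, the 6 ratio changes were smaller, from −1.13 to 1.44. No paired analysis was possible because the groups share no animal number. Depth limits the counts behind *CYP7B1*, 107 to 394 per animal.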

Other observations

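The controls with the lowest *CYP7A1*, animals 56 (14.1 CPM) and 10 (23.5 CPM), had the 2nd highest and the highest *HSD3B7* of the controls (355 and 392 CPM). They also had the highest *PPARGC1A*, a coactivator of the fasting response in liver, with 18.6 and 19.2 CPM against 7.76 to 11.4 CPM in the other 4 controls. These values were picked after they were seen and were not tested. Control 5 had the lowest *RXRA*, the shared partner of these nuclear receptors, at 161 CPM against 287 to 375 CPM in the other controls, and the lowest *PPARA*, at 26.2 CPM against 112 to 139 CPM.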
